A study of Mus musculus with 15 samples.

Results

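Gene expression in fibrotic kidney and fibrotic lung was compared between the IgGK and IgGL libraries, 6 of the 15 RNA libraries of the series, which were taken by their labels alone. IgGK (n = 3) was whole kidney of wild-type male C57Bl/6 mice, aged 10 to 12 weeks, that had received folic acid at 200 mg/kg intraperitoneally and then control IgG at 10 mg/kg for 21 days from day 1, and were euthanized on day 28. IgGL (n = 3) was lung of wild-type male C57Bl/6 mice, aged 12 weeks, that had received bleomycin at 1.5 units/kg through the trachea. They had IgG at the same dose for 14 days from day 1 and were euthanized on day 14, whereas the kidney mice had a span without antibody before day 28. Organ, injury, route, day, antibody course and age differed together, and their parts in a difference cannot be told apart. The other libraries (n = 3 each) were WTK, kidney of vehicle-treated mice, and LepK and LepL, the same injured kidney and lung from mice given the leptin-neutralizing antibody LepAb in place of IgG. A vehicle lung was not analysed here, so a level in IgGL has no uninjured reference, while a level in IgGK can be set beside WTK.

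Folic acid at this dose injures the tubules of the kidney, the epithelial tubes whose transporters take back salts, sugars, amino acids and phosphate from the filtrate. Bleomycin injures the alveoli of the lung, in which flat type 1 cells exchange gas and cuboidal type 2 cells secrete surfactant, the film of lipid and protein that keeps alveoli open. In both organs, fibroblasts and myofibroblasts then deposit fibrillar collagen, fibronectin and elastic fibres, under the influence of TGF-β and of recruited macrophages, and the enzymes of the lysyl oxidase family crosslink the new matrix. In bulk tissue, fewer cells of a type and less RNA per cell cannot be told apart.

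Levels are given as normalized CPM, the reads counted on a gene relative to the library's total, scaled by edgeR's TMM factor. A log2 fold change above 0 means higher in lung. Values in brackets after the levels are log2 fold changes ± SE, and where levels of both organs follow each other without their group's name, IgGK stands before IgGL. To be called, a gene needed a log2 fold change beyond 0.5 in either direction and an adjusted p (Benjamini-Hochberg) under 0.05 (edgeR's quasi-likelihood test, in which all 15 libraries shared the estimate of spread). It was counted as within 2-fold where the 95% confidence interval of its log2 fold change lay between -1 and 1. Of 21696 genes tested, 5093 were called higher in lung (23.5%) and 5800 higher in kidney (26.7%), so that 50.2% of all genes differed between the organs. A difference of more than 8-fold was called for 1138 genes in favour of lung (5.25%) and for 1600 in favour of kidney (7.37%). The interval was within 2-fold for 7587 genes (35.0%). The counts of list genes are to be read against these shares. The 627 genes of 32 lists are described, of which 615 could be tested. Total counts were 26729413 to 36717691 in the 6 libraries.

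The genes that separated the organs most were mainly products of their epithelium, with the muscle myosins *Myh8* and *Myh1* among those of lung. *Slc34a1*, the sodium-phosphate cotransporter of the proximal tubule (ENSMUSG00000021490, chromosome 13, 55546000 to 55563405 in GRCm39), had 2693, 2027 and 2636 normalized CPM in IgGK and no count in any library of IgGL. Taking 3 counts over the group as the floor, it was at least 92800-fold higher in kidney. *Umod*, which encodes the most abundant protein of normal urine, made in the thick ascending limb (ENSMUSG00000030963, chromosome 7, 119061934 to 119078505), had 1090.2, 893 and 1088 normalized CPM in IgGK and no count in any library of IgGL, at least 38800-fold higher in kidney. *Sftpa1*, encoding surfactant protein A (ENSMUSG00000021789, chromosome 14, 40853739 to 40858409), showed the opposite pattern, with 1029, 620.1 and 565 normalized CPM in IgGL and no count in any library of IgGK, at least 22900-fold higher in lung. Each of the 3 genes was thus read in every library of its own organ and in none of the other.

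The start regions of such genes are shown because factors that drive kidney and lung epithelium, such as HNF4 and NKX2-1, bind short known sequences, and the genes *Hnf4a* and *Nkx2-1* differed between the organs as well. Windows of 300 bases, from 250 before to 50 after the first listed start, were taken from RefSeq on GRCm38.p6, another build than that of the gene table. Capitals mark CTCAAG or its reverse complement CTTGAG (the core bound by NKX2-1) and TATAAA or TTTATA (the TATA box). None of these motifs overlaps another in the windows shown.
Slc34a1, plus strand, chr13:55399398-55399697: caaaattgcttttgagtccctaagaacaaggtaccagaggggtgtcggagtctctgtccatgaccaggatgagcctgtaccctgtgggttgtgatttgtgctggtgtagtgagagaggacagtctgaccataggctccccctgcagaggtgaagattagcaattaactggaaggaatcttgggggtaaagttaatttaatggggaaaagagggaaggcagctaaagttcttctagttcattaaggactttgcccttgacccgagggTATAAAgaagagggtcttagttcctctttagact
Kap, minus strand, chr6:133853618-133853917: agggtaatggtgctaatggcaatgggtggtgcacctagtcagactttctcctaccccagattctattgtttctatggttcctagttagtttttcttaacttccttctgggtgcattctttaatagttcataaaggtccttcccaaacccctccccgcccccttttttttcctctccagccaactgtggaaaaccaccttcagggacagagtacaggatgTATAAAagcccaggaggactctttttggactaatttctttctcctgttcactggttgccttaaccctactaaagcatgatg
Sftpb, plus strand, chr6:72304360-72304659: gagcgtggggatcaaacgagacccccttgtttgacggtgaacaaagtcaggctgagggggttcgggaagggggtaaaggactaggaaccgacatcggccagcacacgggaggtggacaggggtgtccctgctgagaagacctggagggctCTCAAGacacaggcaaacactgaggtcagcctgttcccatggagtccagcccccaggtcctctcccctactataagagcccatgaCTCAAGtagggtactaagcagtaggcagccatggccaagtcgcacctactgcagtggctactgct
Sftpa1, plus strand, chr14:41131538-41131837: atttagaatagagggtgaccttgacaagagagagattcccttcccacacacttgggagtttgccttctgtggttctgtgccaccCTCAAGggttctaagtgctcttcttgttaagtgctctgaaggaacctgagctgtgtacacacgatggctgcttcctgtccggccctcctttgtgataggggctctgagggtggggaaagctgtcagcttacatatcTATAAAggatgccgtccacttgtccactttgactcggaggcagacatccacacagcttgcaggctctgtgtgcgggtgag

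The windows of *Slc34a1* and of *Kap*, a further proximal tubule gene, hold a TATA box each and no NKX2-1 core. The *Sftpb* window holds 2 NKX2-1 cores and no TATA box, and that of *Sftpa1* holds 1 of each. The longer motif CAAAGTCCA, bound by HNF4, is in none of the windows shown. It was found in 13 of 956 genes with a listed start among those over 8-fold higher in kidney (1.36%), in 1 of 755 among those over 8-fold higher in lung (0.132%) and in 0.419% of 14085 genes tested. CTCAAG did not separate the sets, with 14.7% of the kidney genes, 15.8% of the lung genes and 14.5% of the genes tested. TATAAA was present in 13% and 19.3% of both sets, against 8.9% of the genes tested. Over all 27025 genes with a listed start the shares were 0.477% for CAAAGTCCA, 16.2% for CTCAAG and 14.2% for TATAAA. A match says only that these letters are present in the window.

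Both organs matched their labels, since proximal tubule genes summed to 31427, 21258 and 30374 normalized CPM in IgGK and 946, 836 and 1062 in IgGL, and alveolar type 1 genes to 515, 545 and 503 in IgGK and 8687, 8084 and 6176 in IgGL. Some libraries held transcripts typical of other tissues or of blood, whose origin was not tested. Genes of steroid synthesis in the adrenal cortex were higher in IgGK replicates 1 and 2 than in the third replicate and in every other group, as shown by *Star* (235, 275 and 10.3 normalized CPM in IgGK, 6.25, 7.301 and 7.06 in IgGL) and *Cyp11b1* (79.96, 110.3 and 1.21 in IgGK, no count in any library of IgGL). The adipocyte gene *Adipoq* had 57.7, 69.7 and 38.6 normalized CPM in IgGK and 5.05, 3.59 and 3.71 in IgGL, and *Alb*, the albumin gene of liver, 2.47, 79.2 and 29.8 in IgGK and 0.225, 0.351 and 0.237 in IgGL. All lung libraries held genes of skeletal and heart muscle, with *Acta1* at 426, 195 and 121 normalized CPM and *Myh6* at 23.1, 64.7 and 20.2, against at most 1 in each IgGK library. IgGL replicate 3 had the highest hemoglobin, as *Hbb-bs* had 718, 351 and 2769 normalized CPM in IgGL and 38.8, 77.3 and 78.6 in IgGK. Of the genes of such outside cell types, 22 could be tested, of which 13 were called higher in lung and 9 in kidney. Mitochondrial transcripts took 5.85 to 6.27% of the counts in IgGK and 1.19 to 1.61% in IgGL. Their part in the differences below was not tested. With the third IgGK replicate as the only IgGK library, 4250 genes were called higher in lung and 4978 in kidney.

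**Figure D1:**
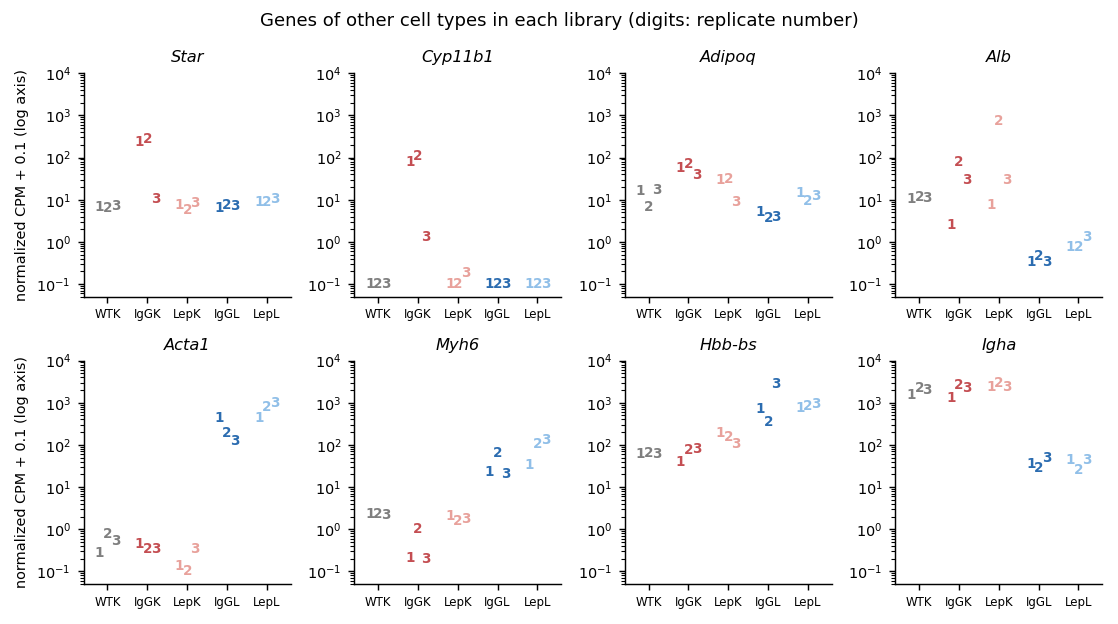
Normalized CPM plus 0.1 on a log axis for 8 genes of tissues or cells outside the organ, by group, with each library drawn as its replicate number. IgGK replicates 1 and 2 stand above all other libraries in *Star* and *Cyp11b1*, IgGL replicate 3 is highest in *Hbb-bs*, and *Igha* is above 1000 in every kidney library, vehicle included.

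Genes of the extracellular matrix were mostly higher in fibrotic lung. Of 176 matrix genes tested, 126 were called higher in lung and 17 higher in kidney, where 23.5% and 26.7% of all genes were. In IgGK, 126 of the 176 were above every vehicle kidney library in every IgGK library, as were 30.9% of all genes tested. The fibrillar collagens summed to 1509, 1627 and 1437 normalized CPM in IgGK and 6704, 8123 and 7674 in IgGL, a ratio of 4.92 between the means, with no overlap. The fibrillar collagens in WTK averaged 429 normalized CPM, so IgGK itself was 3.55-fold above vehicle. Of 11 fibrillar collagen genes, 10 were called higher in lung and 1 in kidney (median log2 fold change 2.26, against -0.048 over all genes).

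**Figure D2:**
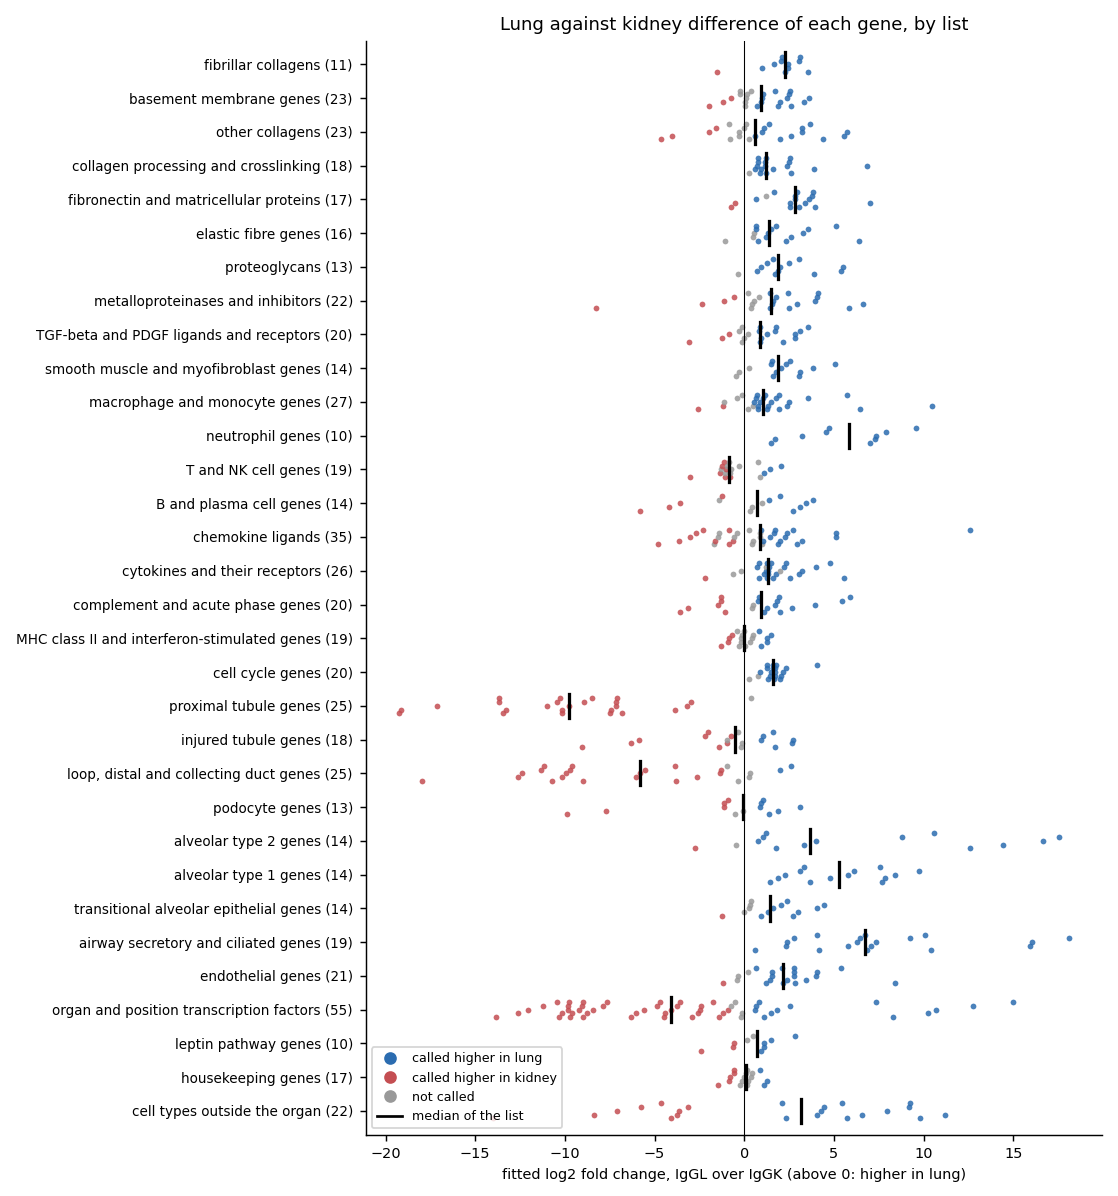
Fitted log2 fold change of IgGL over IgGK for each tested gene of the 32 lists (number tested in brackets), in blue where called higher in lung, red where called higher in kidney and grey where not called, with the list's median as a black line. The median is 2.26 for fibrillar collagens, -9.77 for proximal tubule genes and 0.10 for housekeeping genes. A gene with no count in 1 organ is drawn at its fitted value, which depends on the model's prior count.

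*Col1a1* (ENSMUSG00000001506, chromosome 11, 94827050 to 94843868), which encodes the main chain of type I collagen, had 364, 410.2 and 324 normalized CPM in IgGK and 1909, 2161 and 1984 in IgGL. The groups did not overlap (over all genes, the lung libraries were all above the kidney libraries in 31.0% and all below in 34.0%), and the log2 fold change was 2.46 ± 0.23 (SE, n = 3 against 3, adjusted p = 1.45e-07). *Col1a2*, the partner chain, had 438, 459 and 416 in IgGK and 1841, 2131 and 1731 in IgGL, a log2 fold change of 2.12 ± 0.19 (adjusted p = 6.1e-08). *Col3a1* (ENSMUSG00000026043, chromosome 1, 45350698 to 45388866), the homotrimeric collagen of early scars, had 455, 508 and 456 in IgGK and 1983, 2347 and 2458 in IgGL, and a log2 fold change of 2.26 ± 0.20 (adjusted p = 6.44e-08). In all 3 genes, each lung library stood above each kidney library. Type V collagen, which nucleates type I fibrils, showed a larger difference, with *Col5a2* at 63.7, 59.1 and 58.03 normalized CPM in IgGK and 559.8, 806 and 784 in IgGL (log2 fold change 3.57 ± 0.16). The exception was *Col27a1*, a collagen of cartilage growth plates, which had 105, 109 and 113 normalized CPM in IgGK and 35.1, 39.8 and 37.3 in IgGL. It was higher in kidney (-1.55 ± 0.10, adjusted p = 2.29e-09), and its level in WTK, 267 ± 31.1 (SD, n = 3), was above that in IgGK.

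**Figure D3:**
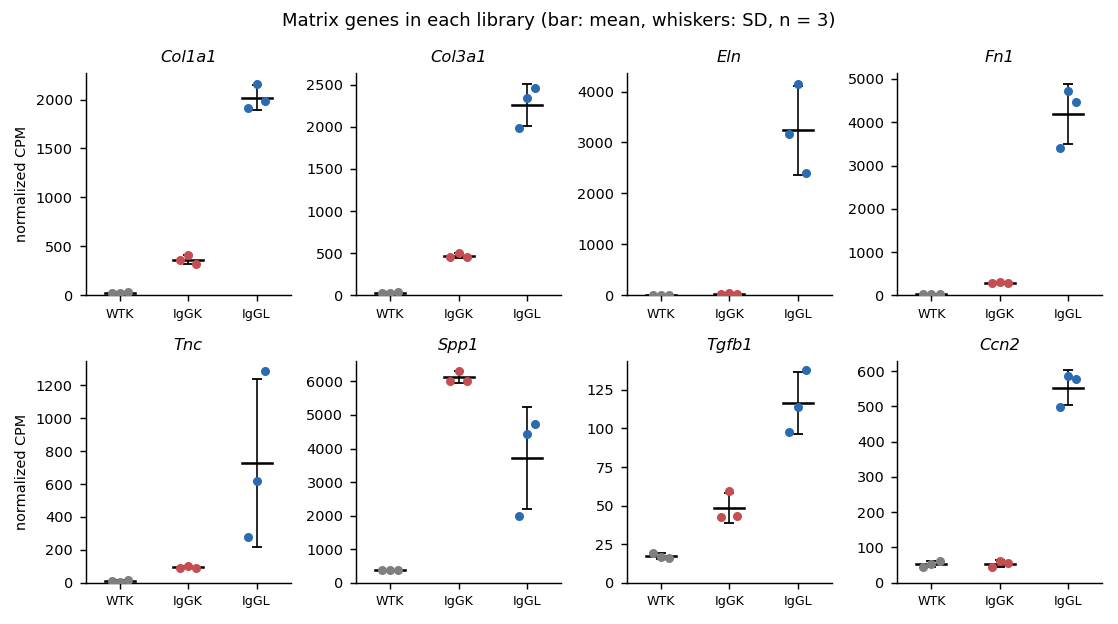
Normalized CPM of 8 matrix and growth factor genes in each WTK, IgGK and IgGL library, on linear axes from 0, with the mean as a bar and the SD of 3 libraries as whiskers. In 7 of the 8 genes all IgGL libraries lie above all IgGK libraries, and in *Spp1* all IgGL libraries lie below them.

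Basement membrane genes were divided between the organs. Of 23 tested, 13 were called higher in lung and 3 in kidney, and 9 were within 2-fold (median 0.92). The major chains *Col4a1* (438, 449.8 and 409 normalized CPM in IgGK, 2082, 2551 and 2577 in IgGL) and *Col4a2* (317, 331 and 308 against 1624, 2086 and 1890.3), which lie head to head and overlap by a few bases on chromosome 8, were higher in lung by 2.48 ± 0.14 and 2.55 ± 0.13 on the log2 scale. *Col4a4*, a chain of the mature glomerular and alveolar membranes, had 213, 207 and 219.6 normalized CPM in IgGK and 278, 245 and 132 in IgGL, with a 95% interval of -0.37 to 0.44. *Agrn*, the proteoglycan agrin, also lay within 2-fold, with 520.2, 543 and 535 in IgGK and 507, 497 and 350.1 in IgGL. *Lamb3*, a laminin chain that anchors epithelium, was higher in lung by a larger factor, with 15.4, 16.1 and 18.3 normalized CPM in IgGK and 218, 223 and 171 in IgGL (3.62 ± 0.14). In the other direction went *Col18a1* and *Col15a1*, the multiplexins that carry endostatin-like domains. *Col18a1* had 488, 525 and 484 normalized CPM in IgGK and 112, 120.1 and 147 in IgGL (-1.98 ± 0.13, adjusted p = 1.25e-09), and its reads may include some of the overlapping *Slc19a1*. *Col15a1* had 167, 175 and 152 in IgGK and 58.3, 73.6 and 83.4 in IgGL (-1.20 ± 0.21, adjusted p = 0.000102), and both were above their WTK levels of 153 ± 5.42 and 21.4 ± 4.596 in every IgGK library.

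Of 23 other collagen genes tested, 12 were called higher in lung, 4 in kidney, and 3 were within 2-fold (median 0.60). The abundant type VI chains, which form beaded filaments around cells, were higher in lung, as in *Col6a1* with 82.1, 88.2 and 63.5 normalized CPM in IgGK and 621, 834 and 739 in IgGL (3.23 ± 0.17), and *Col6a3* with 61.96, 73.9 and 58.96 against 339, 721 and 769 (3.23 ± 0.23). *Col6a5* and *Col6a6* went the other way at low level, the former with 3.25, 3.06 and 3.53 normalized CPM in IgGK and 0.724, 0.753 and 1.04 in IgGL (-1.97 ± 0.31), as did *Col26a1*, with 5.89, 7.196 and 7.53 against 0.625, 0.226 and 0.416 (-4.01 ± 0.41). *Col16a1* was called higher in lung, yet its interval of 0.37 to 0.82 stayed within 2-fold. *Col9a1* did not pass the filter on low counts.

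The enzymes that process and crosslink collagen pointed in a single direction, with 17 of 18 genes called higher in lung and none in kidney (median 1.19). *Lox*, lysyl oxidase, had 40.8, 44.2 and 37.4 normalized CPM in IgGK and 396, 708 and 710.4 in IgGL, and a log2 fold change of 3.89 ± 0.30 (adjusted p = 1.17e-08). *Serpinh1*, the collagen chaperone HSP47, had 219, 238 and 199 in IgGK and 502, 492 and 509.6 in IgGL (1.20 ± 0.10). *P4ha3*, an isoform of prolyl hydroxylase, was nearly confined to lung, with 0, 0.429 and 0.124 normalized CPM in IgGK and 19.5, 23.6 and 24.8 in IgGL. The gene not called was *Pcolce*, the enhancer of procollagen cleavage, at 132, 144 and 123 in IgGK and 177, 169 and 141 in IgGL (95% interval 0.072 to 0.50).

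Fibronectin and the matricellular proteins, which signal to cells rather than bear load, were higher in lung for 14 of 17 genes and higher in kidney for 2 (median 2.83). *Fn1* (ENSMUSG00000026193, chromosome 1, 71624679 to 71692359), fibronectin, had 293, 309 and 279.5 normalized CPM in IgGK and 3412, 4711 and 4467 in IgGL, and a log2 fold change of 3.84 ± 0.22 (adjusted p = 3.48e-10). *Sparc*, a collagen-binding protein, had 533, 600.1 and 459 against 3730.3, 4066 and 3554 (2.83 ± 0.16). *Ccn2*, the connective tissue growth factor induced by TGF-β, had 43.7, 61.7 and 56.7 normalized CPM in IgGK and 497, 585 and 577 in IgGL (3.36 ± 0.19, adjusted p = 2.28e-10). The level of *Ccn2* in IgGK overlapped that in vehicle kidney (43.3, 53.8 and 62.2). *Tnc*, tenascin C, varied widely among the lungs, with 91.9, 103 and 91.8 in IgGK and 281, 618 and 1287 in IgGL (2.93 ± 0.41). *Ccn5* had 0.459, 0.367 and 0.31 in IgGK and 71.4, 39.6 and 32.7 in IgGL (6.98 ± 0.47). *Spp1*, osteopontin (ENSMUSG00000029304, chromosome 5, 104582984 to 104588916), went against the rest, at 6018, 6325 and 6013 normalized CPM in IgGK and 1984, 4429 and 4742 in IgGL, with 374 ± 6.41 in WTK. The call in favour of kidney (-0.72 ± 0.27, adjusted p = 0.0308) was lost without IgGL replicate 1 (-0.42, adjusted p = 0.102). Without an IgGK replicate the log2 fold change stayed between -0.73 and -0.70 while the adjusted p was 0.0554 to 0.0636. Per kilobase of length it ranked 3 in IgGK and 5 in IgGL of 16313 protein-coding genes. *Thbs2*, thrombospondin 2, was called higher in kidney by a margin whose interval stayed within 2-fold (-0.88 to -0.21), and lay under the fold threshold without IgGK replicate 2 (-0.47). *Thbs1*, its paralog, was called higher in lung, with 119, 132 and 132 in IgGK and 1012, 1782 and 1887 in IgGL (3.61 ± 0.20).

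Elastic fibre genes differed strongly between the organs. *Eln* (ENSMUSG00000029675, chromosome 5, 134731447 to 134776177), which encodes tropoelastin, had 35.7, 39.9 and 37.99 normalized CPM in IgGK and 3161, 4151 and 2401 in IgGL. The lowest lung library stood far above the highest kidney library, and the log2 fold change was 6.42 ± 0.27 (adjusted p = 7.64e-12). *Fbn1*, fibrillin 1, had 58.5, 55.02 and 57.2 in IgGK and 449, 626 and 590.5 in IgGL (3.29 ± 0.16), and *Mfap4* had 13.5, 14.6 and 11.03 against 673, 380.0 and 288 (5.10 ± 0.33). Of the 16 genes of the list, 13 were called higher in lung and none in kidney (median 1.38). *Fbln5*, fibulin 5, was not called at 124, 122 and 114 in IgGK and 233, 179 and 90.7 in IgGL, and passed the thresholds without IgGL replicate 3 (0.78). Of 13 proteoglycan genes tested, 12 were called higher in lung (median 1.88) and the remaining *Acan* was near 0 in both organs. *Bgn*, biglycan, had 518, 628 and 494 normalized CPM in IgGK and 1692, 1891 and 1717 in IgGL (1.69 ± 0.15). *Cd44*, the hyaluronan receptor, had 81.7, 97.3 and 90.3 in IgGK and 203, 260.1 and 345 in IgGL (1.58 ± 0.21). *Has1*, a hyaluronan synthase, had 0.212, 0.429 and 0.372 against 12.1, 22.1 and 12.02 (5.48 ± 0.49).

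Among the matrix metalloproteinases and their inhibitors, 13 of 22 genes were called higher in lung and 4 in kidney (median 1.49). *Timp1*, an inhibitor of these proteases, had 25.6, 32.5 and 24.1 normalized CPM in IgGK and 188, 371 and 813 in IgGL (4.06 ± 0.42), with the highest value in IgGL replicate 3. *Timp2* had 220.4, 268 and 232 against 878, 936 and 633 (1.76 ± 0.17). *Timp3*, which binds the matrix itself, was within 2-fold at 354, 288 and 325 in IgGK and 468, 471 and 368 in IgGL. Its IgGK libraries were all below the WTK level of 1049 ± 51.9. The gene was called higher in lung without IgGL replicate 3 (0.55) or IgGK replicate 1 (0.51). *Mmp7*, matrilysin, had the largest difference in favour of kidney of the 22 genes, with 16.02, 23.5 and 19.9 normalized CPM in IgGK and 0.0749, 0.0502 and 0.0594 in IgGL (-8.24 ± 0.48, adjusted p = 3.92e-10), and it was near 0 in vehicle kidney (0, 0.0847 and 0.0387). *Mmp8*, the neutrophil collagenase, was its counterpart, with 0.353, 0.429 and 0 in IgGK and 20.7, 25.5 and 30.3 in IgGL (6.60 ± 0.54). *Mmp12*, macrophage elastase, showed no call, since its IgGL libraries (247, 124 and 36.3) lay on both sides of the IgGK libraries (104, 149 and 108). *Mmp11* and *Mmp23* were called higher in kidney, with log2 fold changes of -0.59 and -1.14. The call of *Mmp11* was lost without IgGK replicate 2 or IgGL replicate 3, and its counts may include reads of the overlapping *Chchd10*.

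Ligands and receptors of the TGF-β and PDGF families were higher in lung for 12 of 20 genes and higher in kidney for 3, with 5 within 2-fold (median 0.87). *Tgfb1* (ENSMUSG00000002603, chromosome 7, 25386427 to 25404502) had 42.6, 59.5 and 43.3 normalized CPM in IgGK and 97.9, 114 and 138 in IgGL, and a log2 fold change of 1.27 ± 0.15 (adjusted p = 1.89e-06). Its type II receptor gene *Tgfbr2* had 161, 171 and 161 in IgGK and 464, 556 and 589 in IgGL (1.71 ± 0.095), whereas the type I receptor gene *Tgfbr1* was at a common level, 100.4, 100.4 and 104 against 107, 116 and 124 (95% interval -0.017 to 0.39). *Pdgfra*, a receptor carried by fibroblasts, had 117, 109 and 108 normalized CPM in IgGK and 322, 409.9 and 391 in IgGL (1.75 ± 0.13). *Itgav*, the integrin subunit that binds latent TGF-β, was higher in kidney, with 257, 255 and 258 in IgGK and 109, 144 and 172 in IgGL (-0.86 ± 0.13). *Bmp7*, a ligand of collecting duct and podocytes that opposes TGF-β signaling, had 37.2, 29.2 and 34.2 in IgGK and 2.75, 3.59 and 5.67 in IgGL (-3.08 ± 0.21), with 70.4 ± 1.75 in WTK. Smooth muscle and myofibroblast genes were called higher in lung for 11 of 14 and for none in kidney (median 1.89). *Acta2*, smooth muscle actin, had 76.8, 77.8 and 69.5 normalized CPM in IgGK and 279, 269.8 and 368 in IgGL (2.03 ± 0.12, adjusted p = 4.07e-10), and *Cald1* had 113, 129.8 and 121 against 316, 411 and 499 (1.75 ± 0.15). *Smtn*, smoothelin, was at 85.8, 91.5 and 101 in IgGK and 69.4, 66.1 and 64.8 in IgGL, just under the fold threshold (-0.47 ± 0.095) and past it without IgGK replicate 1 (-0.52) or IgGL replicate 1 (-0.51).

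Immune genes did not move together. Macrophage and monocyte genes were called higher in lung for 20 of 27 and in kidney for 2, with 4 within 2-fold (median 1.04). Their summed level was 2654, 3386 and 2685 normalized CPM in IgGK and 7621, 6699 and 5860.3 in IgGL, without overlap. *Lyz2*, lysozyme of macrophages and neutrophils, had 1085, 1377 and 1109 normalized CPM in IgGK and 4802, 3076 and 1966 in IgGL (1.46 ± 0.26, adjusted p = 0.000126), and is also made by type 2 cells. *Chil3*, a chitinase-like protein of alternatively activated and alveolar macrophages with a near-identical neighbour, had 0.282, 0.857 and 0.186 in IgGK and 353, 673 and 892 in IgGL (10.46 ± 0.68). *Csf1r*, the receptor on which macrophages depend, was at a common level, 158, 172 and 158 in IgGK and 201, 207 and 153 in IgGL (95% interval -0.018 to 0.42). *Cx3cr1*, the fractalkine receptor of resident phagocytes, was higher in kidney, at 53.6, 61.1 and 53.4 in IgGK and 37.1, 22.5 and 13.9 in IgGL (-1.19 ± 0.29), although several genes overlap it. *Fabp4*, shared by macrophages, endothelium and adipocytes, had 278, 370.1 and 224 in IgGK and 61.9, 26.04 and 59.3 in IgGL (-2.57 ± 0.31), beside the higher *Adipoq* of the kidney libraries. *Arg1*, arginase 1, had 1.41, 4.23 and 2.85 normalized CPM in IgGK and 31.8, 161 and 565 in IgGL, so that every lung was above every kidney while the lungs differed widely.

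All 10 neutrophil genes tested were called higher in lung, with a median log2 fold change of 5.86, or 4.64 with the genes that had no count in kidney set at their bounds. *Ltf*, lactoferrin of neutrophil granules and airway glands, had 0.282, 0.612 and 0.899 normalized CPM in IgGK and 61.2, 56.5 and 185 in IgGL (7.36 ± 0.49, adjusted p = 1.94e-09). *S100a8*, a subunit of calprotectin, had 2.43, 3.55 and 1.704 against 33.3, 40.04 and 107 (4.54 ± 0.47). IgGL replicate 3 was the highest in both, as in the summed level of the list (145, 191 and 146 in IgGK and 667, 535 and 1104 in IgGL). *Lcn2*, lipocalin 2, which neutrophils and injured tubules both make, had 122, 163 and 127 in IgGK and 466, 319 and 578 in IgGL (1.72 ± 0.21), with 3.61 ± 1.196 in WTK. It is a member of the list and made up most of the summed level in every IgGK and IgGL library. The sum is thus not a measure of neutrophils alone. *Mpo* and *Elane*, genes of immature neutrophils, had too few counts to be tested in either organ.

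T and NK cell genes had the lowest median of the immune lists (-0.83), with 3 of 19 called higher in lung and 7 in kidney. *Lck*, the kinase at the T cell receptor, had 11.5, 17.3 and 13.04 normalized CPM in IgGK and 12.04, 5.55 and 6.02 in IgGL (-0.82 ± 0.28, adjusted p = 0.0169). *Trbc2*, a constant region of that receptor, had 11.04, 15.1 and 12.8 in IgGK and 9.92, 4.14 and 3.74 in IgGL (-1.13 ± 0.35, adjusted p = 0.011). In both, IgGL replicate 1 lay within or near the kidney range, while the other lungs were lower. The calls depended on single libraries. That of *Lck* was lost without IgGK replicate 2, IgGL replicate 2 or IgGL replicate 3, that of *Trbc2* without IgGL replicate 2 (adjusted p = 0.0573) or 3, and the number of genes higher in kidney was 13 without IgGL replicate 1, 1 without IgGK replicate 2 and 1 without IgGL replicate 3. Of the 3 genes called higher in lung, *Gzma*, a granzyme, had 0.494, 1.102 and 0.155 in IgGK and 3.77, 1.43 and 1.96 in IgGL (2.02 ± 0.56) and *Prf1*, perforin, had 0.0706, 1.13 and 0.465 against 2.098, 1.43 and 1.009 (1.42 ± 0.57), the latter with adjusted p = 0.0429, and its call was lost without IgGK replicate 1 or 3 or IgGL replicate 1 or 2 (adjusted p of 0.0657 to 0.140). *Ifng*, interferon-γ, had 0, 0.551 and 0.372 normalized CPM in IgGK and 0.05, 0.0502 and 0 in IgGL (-3.03 ± 1.05, adjusted p = 0.0205), only a few reads per library, and lost its call without IgGK replicate 2, IgGK replicate 3 or IgGL replicate 3.

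B cell and plasma cell genes split. Those called higher in lung included *Cd79a*, a chain of the B cell receptor, at 2.75, 5.88 and 4.21 normalized CPM in IgGK and 29.3, 8.56 and 13.1 in IgGL (1.98 ± 0.43), and *Ighd*, the immunoglobulin D constant region, at 1.27, 1.87 and 1.86 against 42.9, 12.7 and 15.9 (3.83 ± 0.55). Those called higher in kidney included *Igha* and *Igkc*. *Igha*, the constant region of immunoglobulin A, had 1300.4, 2679 and 2199 normalized CPM in IgGK and 34.8, 27.7 and 48.5 in IgGL (-5.80 ± 0.32, adjusted p = 2.09e-10), and *Igkc*, the kappa light chain, had 801, 1758 and 1502 against 127, 78.6 and 131 (-3.59 ± 0.35). Vehicle kidney held 1938 ± 389.7 and 1121 ± 204 of them. Of the 14 genes, 6 were called higher in lung and 4 in kidney. *Xbp1*, a factor needed for secretion, was within 2-fold (0.069 to 0.53).

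**Figure D4:**
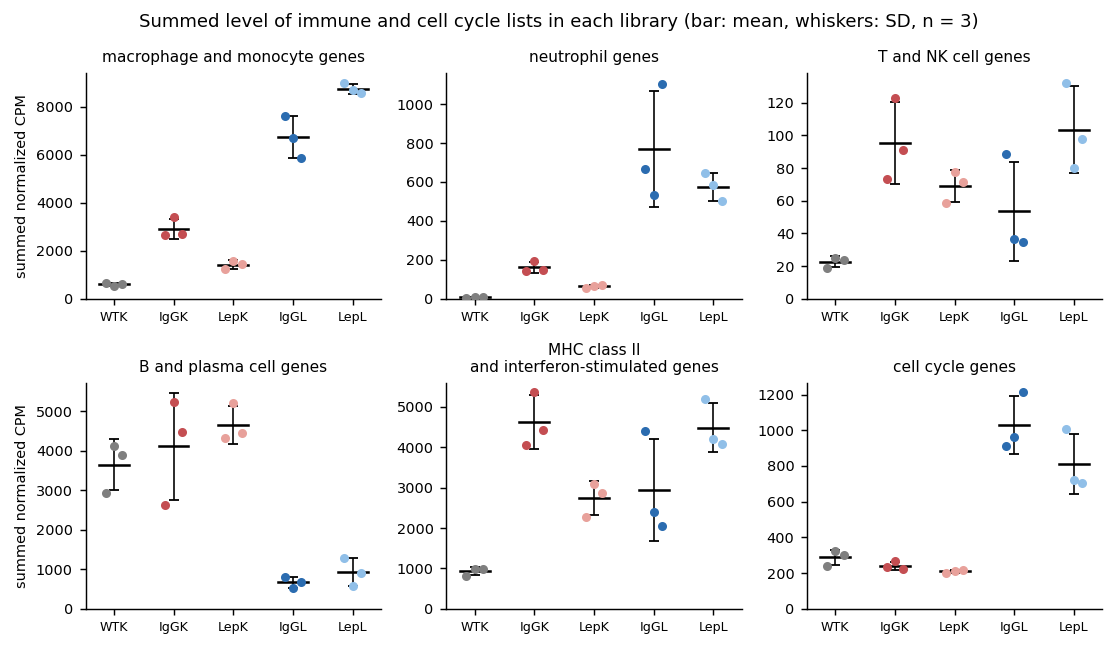
Summed normalized CPM of 5 immune lists and of the cell cycle list in each library of the 5 groups, with the mean as a bar and the SD of 3 libraries as whiskers, on axes from 0. Macrophage, neutrophil and cell cycle sums lie higher in IgGL than in IgGK in every library, B and plasma cell sums lie lower, and in the T and NK cell and MHC class II panels IgGL replicate 1 (the left point) stands above the other IgGL libraries. *Lcn2*, which injured tubules also make, is most of the neutrophil sum in IgGK and IgGL.

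Chemokine ligands were called higher in lung for 15 of 35 genes and higher in kidney for 9 (median 0.85). *Cxcl15*, the lungkine of airway and alveolar epithelium, had 0, 0.245 and 0.062 normalized CPM in IgGK and 943, 588 and 531 in IgGL (12.60 ± 0.41). *Ccl6*, a macrophage chemokine, had 42.7, 57.2 and 50.7 in IgGK and 319.5, 349.6 and 476 in IgGL (2.93 ± 0.21). *Ccl2*, which recruits monocytes, had 17.2, 16.4 and 18.96 in IgGK and 17.6, 38.8 and 50.7 in IgGL, with 0.955 ± 0.482 in WTK. IgGL replicate 1 did not exceed the kidneys, and the call (1.02 ± 0.32, adjusted p = 0.012) was lost without IgGL replicate 3 (adjusted p = 0.0828). *Cx3cl1*, fractalkine, the ligand of CX3CR1, was higher in kidney like its receptor, at 147, 162 and 149.6 normalized CPM in IgGK and 27.8, 24.3 and 18.8 in IgGL (-2.69 ± 0.11, adjusted p = 7.37e-12). The neutrophil attractant *Cxcl1* had 23.2, 22.9 and 23.4 in IgGK and 2.798, 7.23 and 4.04 in IgGL (-2.30 ± 0.29), and *Cxcl5* had 22.3, 26.9 and 19.99 against 2.17, 2.11 and 4.18 (-3.03 ± 0.45). *Cxcl10*, an interferon-induced attractant of T cells that overlaps *Art3*, had 24.9, 32.9 and 26.3 in IgGK and 15.5, 15.6 and 15.7 in IgGL (-0.85 ± 0.16). *Cxcl12*, which retains leukocytes and stem cells, was within 2-fold (0.18 to 0.69) and was called higher in lung without IgGL replicate 3 (0.53).

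Of 26 cytokine and receptor genes, 21 were called higher in lung and 1 in kidney (median 1.34). *Il1b*, interleukin-1β, had 6.25, 8.298 and 7.003 normalized CPM in IgGK and 18.3, 10.9 and 36.2 in IgGL (1.60 ± 0.37, adjusted p = 0.00154). *Il6*, interleukin-6, had 0.212, 0.612 and 0 in IgGK and 4.57, 4.97 and 13.4 in IgGL (4.77 ± 0.73, adjusted p = 3.13e-05). Both groups were low, and the lowest lung library was above the highest kidney library in each case. *Il6st*, the shared signaling receptor gp130, had 224, 226 and 228 in IgGK and 446, 432 and 328 in IgGL (0.83 ± 0.096). *Il4ra*, the receptor of interleukins 4 and 13, showed a larger difference, with 47.5, 56.7 and 45.4 against 302, 410.4 and 519.7 (3.04 ± 0.17). *Il13ra1*, its partner chain, was called with an interval that stayed within 2-fold (0.48 to 0.97). *Il34*, an alternative ligand of CSF1R made by tubules, was the exception at 76.2, 78.7 and 78.6 in IgGK and 17.7, 17.1 and 15.7 in IgGL (-2.21 ± 0.091, adjusted p = 4.88e-12), while *Csf1*, the main ligand, had 53.6, 67.2 and 49.02 against 86.6, 106 and 110.3 (0.83 ± 0.13). The ligands of CSF1R thus differed in opposite directions, and the receptor lay within 2-fold.

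Complement and acute phase genes were called higher in lung for 12 of 20 and in kidney for 6. *C3*, the central complement component, was abundant in both, with 949.6, 1291 and 952 normalized CPM in IgGK and 1359, 1798 and 1144 in IgGL (95% interval -0.11 to 0.97), against 54.3 ± 17.95 in WTK. *Serpina3n*, an acute phase protease inhibitor, was higher in lung, with 13.8, 18.4 and 14.7 in IgGK and 678, 1078 and 1002 in IgGL (5.88 ± 0.31), as was *Hp*, haptoglobin, with 42.8, 40.1 and 48.1 against 671, 668 and 709.7 (3.97 ± 0.29). *Cfi*, the complement regulator factor I, was higher in kidney, with 31.5, 33.8 and 29.3 normalized CPM in IgGK and 3.72, 2.56 and 1.45 in IgGL (-3.60 ± 0.32). *Cfd*, factor D or adipsin, had 254, 276 and 163 against 39.3, 18.4 and 21.5 (-3.13 ± 0.60) and is an adipocyte gene, as is *Adipoq*, which was higher in the same libraries. Among MHC class II and interferon-stimulated genes, 5 of 19 were called higher in lung, 4 in kidney and 9 were within 2-fold (median -0.01). *Cd74*, the invariant chain, had 1435, 1888 and 1556 normalized CPM in IgGK and 1692, 822 and 563 in IgGL, and *H2-Aa* had 709, 967 and 809 against 727, 358 and 245. IgGL replicate 1 lay inside the kidney range in both, and the calls (-0.67 ± 0.27, adjusted p = 0.0473, and -0.90 ± 0.27, adjusted p = 0.00918) did not hold with the 6 libraries fitted alone (adjusted p = 0.142 and 0.0532). Without IgGL replicate 3 the log2 fold change of *Cd74* was -0.37 (adjusted p = 0.189). *Bst2* and *Ifit1*, interferon-stimulated genes, were higher in lung by 0.93 and 1.27 on the log2 scale, and *Ifit3* lay within 2-fold (0.23 to 0.76) with a value near the fold threshold, which it passed without IgGL replicate 2 (0.60), IgGL replicate 1 (0.56) or IgGK replicate 2 (0.60).

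Cell cycle genes were called higher in lung for 18 of 20 and for none in kidney (median 1.61). *Mki67*, a marker of dividing cells, had 19.3, 27.6 and 22.2 normalized CPM in IgGK and 64.4, 54.6 and 73.7 in IgGL (1.48 ± 0.24), with 4.78 ± 1.63 in WTK. The largest difference of the list was that of *Cdkn1a*, which encodes the cell cycle inhibitor p21, at 22.7, 31.1 and 28.5 in IgGK and 322, 433 and 588 in IgGL (4.03 ± 0.24, adjusted p = 3.92e-10). *Ccnd1*, cyclin D1, had 50.1, 52.1 and 50.6 against 183, 172 and 149 (1.72 ± 0.13), and its WTK level of 197 ± 29.1 was above that of IgGK. *Mcm2*, of the replicative helicase, was within 2-fold (-0.076 to 0.63).

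Epithelial genes of the nephron were higher in the injured kidney. Of 25 proximal tubule genes, 24 were called higher in kidney and none in lung (median -9.77), and their summed level in WTK was 85310. *Kap*, an androgen-regulated protein of proximal tubules, had 14775, 8650.3 and 14586 normalized CPM in IgGK and a total of 2 reads in IgGL, a ratio of 714000 (95% counting interval 198000 to 5890000). The interval is exact binomial and, like the bounds, covers counting error only. Per kilobase *Kap* ranked 1 in IgGK. *Slc22a6*, the organic anion transporter OAT1, had 640.4, 466 and 578 in IgGK and no count in any library of IgGL, at least 21300-fold higher in kidney. *Hnf4a*, the factor that maintains proximal tubule identity, had 448, 378 and 418 normalized CPM in IgGK and 0.425, 0.1 and 0.564 in IgGL (-10.18 ± 0.29, adjusted p = 8.56e-14), with 1048 ± 13.8 in WTK. All 3 genes were below their vehicle level in every IgGK library and still separated the organs. The gene of the list that was not called was *Aqp1*, a water channel of proximal tubule and of endothelium, at 601, 493 and 549.8 in IgGK and 634, 625 and 875 in IgGL (95% interval 0.12 to 0.63). IgGK replicate 2 had the lowest proximal tubule sum of the kidneys. The genes that led the ranking in favour of kidney over the whole table also included the phosphate transporters *Slc17a1* and *Slc17a3* and the glucuronosyltransferases *Ugt3a2* and *Ugt2b38*, none of which had a count in IgGL, with bounds of 11800, 13900, 21100 and 11600-fold. *Ugt2b38* has close paralogs, between which reads may be divided. By symbol, 178 of 360 solute carrier genes tested were called higher in kidney and 72 in lung, as were 42 and 9 of 65 cytochrome P450 genes and 12 and 0 of 15 *Ugt* genes.

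Of 25 genes of the loop, distal tubule and collecting duct, 19 were called higher in kidney and 2 in lung (median -5.80). *Cdh16*, kidney-specific cadherin, had 832, 847 and 882 normalized CPM in IgGK and 1.45, 0.677 and 0.416 in IgGL (-9.94 ± 0.26, adjusted p = 3.28e-14). *Aqp2*, the vasopressin-regulated water channel, had 539.9, 459 and 580.2 against 0.674, 0.427 and 0.237 (-10.16 ± 0.34). The epithelial sodium channel, which serves both organs, ran against the list. Its subunit genes *Scnn1a* (104, 92.4 and 105 in IgGK, 493, 731 and 591 in IgGL) and *Scnn1g* (47.8, 41.8 and 47.2 against 201, 202 and 139) were higher in lung by 2.59 ± 0.15 and 1.99 ± 0.15, and *Scnn1b* lay within 2-fold (-0.016 to 0.52), with the overlapping *Cog7* nearby. Podocyte genes divided as well, with 6 of 13 called higher in lung and 5 in kidney. *Podxl*, also an endothelial sialomucin, had 133, 159 and 129 normalized CPM in IgGK and 549.8, 529 and 441 in IgGL (1.85 ± 0.12), and *Clic5*, shared with alveolar type 1 cells, had 66.3, 68.1 and 71.7 against 689, 675 and 420.0 (3.11 ± 0.16). *Tcf21*, a factor of podocytes and of fibroblasts in both organs, was called higher in kidney (60.97, 57.7 and 59.1 against 47.7, 24.5 and 21.3), and *Cdkn1c* was within 2-fold (-0.40 to 0.28).

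Genes of injured tubules, several of which other epithelia also express, were called higher in kidney for 8 of 18 and in lung for 6. *Havcr1*, kidney injury molecule 1, had 166, 126 and 152 normalized CPM in IgGK and 0.525, 0.1 and 0.178 in IgGL (-9.06 ± 0.40, adjusted p = 1.29e-11), with 1.17 ± 0.537 in WTK. *Vim*, vimentin, had 164, 222 and 178 in IgGK and 820.2, 1169 and 1589 in IgGL (2.67 ± 0.19), and *Clu*, clusterin, had 801, 917 and 826 against 467, 415 and 425 (-0.96 ± 0.11). *Cp*, ceruloplasmin, was at a common level, 321, 355 and 320.1 in IgGK and 255, 307 and 346 in IgGL (95% interval -0.47 to 0.20), against 35.8 ± 7.48 in WTK. The transitional epithelial state of injured alveoli shares keratins with this list. Of its 14 genes, 9 were called higher in lung and 1 in kidney (median 1.46). *Krt8* had 223, 238 and 247 normalized CPM in IgGK and 315, 449 and 594 in IgGL (0.94 ± 0.15), a smaller difference than that of *Krt19* (44.6, 51.6 and 45.95 against 223, 309 and 397, 2.71 ± 0.23). *Krt7* had 150.0, 183 and 185 against 621, 716 and 780.1 (2.03 ± 0.11), and *Lgals3*, galectin 3, 163, 211 and 184 against 322, 464 and 612 (1.33 ± 0.18). *Cldn4*, a tight junction gene, was within 2-fold (0.042 to 0.75) and was called without IgGL replicate 1 (0.57), and *Trp63*, of basal cells, was higher in kidney (5.19, 4.19 and 5.36 against 2.15, 1.46 and 2.73, -1.22 ± 0.35).

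Of 14 alveolar type 2 genes, 12 were called higher in lung and 1 in kidney (median 3.66). *Sftpc* (ENSMUSG00000022097, chromosome 14, 70758389 to 70761521), the surfactant protein made only by type 2 cells, had 0, 0.0306 and 0.093 normalized CPM in IgGK and 6843, 4398 and 3167 in IgGL (16.65 ± 0.52), and per kilobase it ranked 2 in IgGL. *Sftpb* had 0.176, 0.0612 and 0.031 in IgGK and 2307, 1823 and 1751 in IgGL (14.41 ± 0.28). IgGL replicate 1 was highest in both. A pair of genes of the same lamellar body pathway were no lung markers in this comparison. *Napsa*, the protease that cleaves surfactant precursors and is also made in proximal tubule, was higher in kidney at 1349.8, 1090.4 and 1309.8 against 209, 198 and 141 (-2.77 ± 0.14). *Abca3*, the lipid pump of lamellar bodies, had 257, 222 and 243 in IgGK and 226, 171 and 120.4 in IgGL, within 2-fold (-0.83 to -0.13), with 564 ± 26.3 in WTK, and was called higher in kidney without IgGK replicate 2 (-0.54), without IgGL replicate 1 (-0.73) and under a replicate block (-0.50, adjusted p = 0.00895). All 14 type 1 genes were called higher in lung (median 5.28). *Ager*, the receptor for advanced glycation end-products, had 7.13, 9.22 and 8.18 normalized CPM in IgGK and 1874, 1745 and 1463 in IgGL (7.69 ± 0.17, adjusted p = 5.07e-15). *Emp2*, an epithelial membrane protein, had 41.4, 55.6 and 45.98 in IgGK and 1232, 1496 and 1191 in IgGL (4.78 ± 0.14).

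All 19 airway genes were called higher in lung (median 6.73). *Scgb1a1* (ENSMUSG00000024653, chromosome 19, 9061000 to 9065322), the club cell secretory protein, had 7623, 6224 and 7464 normalized CPM in IgGL and 2 reads in IgGK, a ratio of 330000 (95% counting interval 91500 to 2730000), and it ranked 1 per kilobase in IgGL. *Scgb3a2* had 317, 213 and 249 in IgGL and no count in any library of IgGK, at least 8080-fold higher in lung. *Bpifa1*, an antimicrobial protein of the upper airway, had 226, 121 and 392 and no count in any library of IgGK, at least 7660-fold higher. *Foxj1*, the factor of motile cilia, was also read in injured kidney, at 8.96, 9.71 and 8.77 normalized CPM in IgGK against 0.175 ± 0.152 in WTK and 51.7, 43.1 and 45.6 in IgGL (2.35 ± 0.26). The genes that led the ranking in favour of lung also included the skeletal muscle myosins *Myh8* (419.6, 146 and 115) and *Myh1* (175, 235 and 55.6), with no count in IgGK and bounds of 7060 and 4820-fold. Muscle genes thus stood in this ranking beside those of lung epithelium.

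Transcription factors of organ identity and position mostly differed, with 38 of 55 called higher in kidney and 13 in lung. The list includes *Hox* genes, so its counts share genes with those of the next paragraph. Over all 31 *Hox* genes tested, 26 were called higher in kidney and 3 in lung. *Nkx2-1* (ENSMUSG00000001496, chromosome 12, 56578743 to 56583693), the master factor of lung epithelium, had 141, 143 and 91.5 normalized CPM in IgGL and no count in any library of IgGK, at least 3900-fold higher in lung. *Foxf1*, of lung mesenchyme and endothelium, had 0.459, 0.398 and 1.55 in IgGK and 135, 125 and 141 in IgGL (7.36 ± 0.32). *Tbx2* was shared, with 79.3, 86.01 and 91.2 in IgGK and 245, 266 and 221 in IgGL (1.51 ± 0.11). For the kidney, *Pax8* had 85.1, 84.6 and 90.2 normalized CPM in IgGK and 0, 0.301 and 0 in IgGL (-9.63 ± 0.36, adjusted p = 1.78e-12). *Wt1* and *Irx2* were within 2-fold, so not every factor of the list differed.

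The *Hox* genes record position along the body axis and lie in 4 clusters in the order of that axis. Their organ difference varied with both number and cluster. All 10 tested genes numbered 9 to 11 were called higher in kidney, and 6 of them had no count in any IgGL library. *Hoxa10* had 59.1, 53.98 and 57.8 normalized CPM in IgGK and no count in any library of IgGL, at least 2160-fold higher in kidney. All 8 genes numbered 6 to 8 were also called higher in kidney and had some count in lung. *Hoxb6* had 88.7, 100.4 and 94.7 in IgGK and 4.597, 3.36 and 4.99 in IgGL (-4.46 ± 0.18). *Hoxc6* and *Hoxc8* averaged only 0.042 and 0.033 normalized CPM in IgGL, below *Hoxd9* at 0.76. Of the 13 genes numbered 1 to 5, 8 were called higher in kidney, 3 in lung and 2 in neither. Those higher in lung were *Hoxa2*, *Hoxa4* and *Hoxa5*, all of the same cluster. *Hoxa5*, needed for lung development, had 23.6, 26.4 and 21.7 normalized CPM in IgGK and 37.05, 32.3 and 43.7 in IgGL (0.66 ± 0.15, 95% interval 0.34 to 0.98), and its reads may include those of overlapping genes. *Hoxd3*, a gene of low number, had 3.63, 3.43 and 3.63 in IgGK and no count in any library of IgGL, so the order was not strict. *Hoxc4*, *Hoxc5* and *Hoxd4*, also of low number, had log2 fold changes of -4.72, -3.74 and -7.64. Those of *Hoxa6* and *Hoxa7* were smaller, at -2.59 and -2.92. *Hoxa13*, *Hoxb1*, *Hoxb13*, *Hoxc12*, *Hoxc13*, *Hoxd1*, *Hoxd12* and *Hoxd13* were too low in both organs to be tested.

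**Figure D5:**
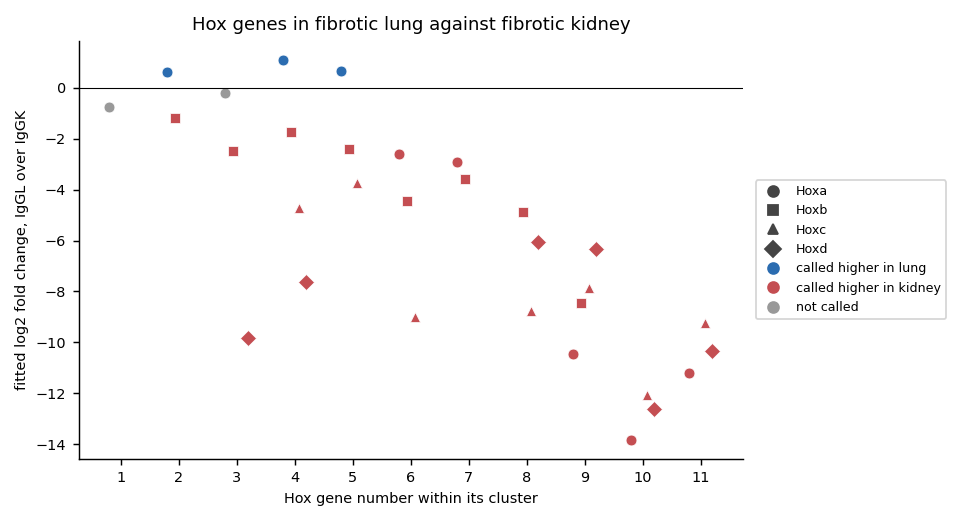
Fitted log2 fold change of IgGL over IgGK for the 31 *Hox* genes tested, by gene number on the x axis, with the shape giving the cluster and the colour the call. All genes from number 6 on lie below 0 (higher in kidney), and the only genes called above 0 are *Hoxa2*, *Hoxa4* and *Hoxa5*. Genes with no count in lung are drawn at fitted values.

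Endothelial genes were called higher in lung for 17 of 21 and in kidney for 1 (median 2.16). *Vwf*, von Willebrand factor, had 18.98, 17.8 and 16.02 normalized CPM in IgGK and 736, 795 and 719 in IgGL (5.41 ± 0.22, adjusted p = 3.58e-12), and *Cdh5*, VE-cadherin, had 28.1, 33.3 and 28.8 against 473, 442 and 601 (4.07 ± 0.14). *Lyve1*, of lymphatic endothelium and some macrophages, had 0.67, 1.29 and 1.58 against 264, 376 and 559.6 (8.38 ± 0.36). *Prox1*, a factor of lymphatic identity, went the other way at 10.4, 10.3 and 10.1 in IgGK and 5.07, 5.37 and 3.06 in IgGL (-1.19 ± 0.23). Which cells carried either transcript was not tested. *Car4*, of capillaries and tubules, was within 2-fold (-0.82 to 0.0043) and was called higher in kidney without IgGL replicate 1 (-0.61) or IgGK replicate 2 (-0.56).

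Levels within 2-fold were found for most housekeeping genes and for a few abundant genes of injury. Of 17 housekeeping genes, 11 were within 2-fold (64.7%, against 35.0% of all genes tested; median 0.10). Called higher in lung were 3 (17.6%, against 23.5%) and higher in kidney 5 (29.4%, against 26.7%). A gene can be both called and within 2-fold, so these counts overlap. The genes at the highest shared level by the naming rule were *Eef1a1*, *Fth1*, *Psap*, *Apoe*, *Eef2* and *Tpt1*. *Eef1a1*, a translation elongation factor with many pseudogenes, had 3364, 3266 and 3192 normalized CPM in IgGK and 3081, 3680.2 and 4136 in IgGL (95% interval -0.075 to 0.37). *Fth1*, the ferritin heavy chain, had 2989.7, 2692 and 2880.2 against 2282, 2680.3 and 3329 (-0.31 to 0.22), and *Psap*, the lysosomal prosaposin, 2162, 2345 and 2209.7 against 2466, 2152 and 1969 (-0.29 to 0.24). These genes were also high in vehicle kidney, with 4061 ± 91.2, 5023 ± 60.05 and 3411 ± 296 normalized CPM in WTK. *Apoe*, the lipid carrier that macrophages secrete, was different in this respect. It had 1563, 1957 and 1613 normalized CPM in IgGK and 2062, 2624 and 1669.8 in IgGL (-0.14 to 0.75) but 143 ± 17.3 in WTK, and ranked 15 in IgGK, 16 in IgGL and 862 in WTK per kilobase. *Eef2*, a further elongation factor, had an interval of 0.012 to 0.36, and *Tpt1* an interval of -0.15 to 0.27. Common reference genes were not all level, as *Actb*, β-actin, had 1149, 1368 and 1235 in IgGK and 3031, 2924 and 3026 in IgGL (1.26 ± 0.087, adjusted p = 3.12e-09), and *Tubb5* was higher in lung by 1.10 ± 0.12. *Sdha*, a mitochondrial dehydrogenase, was higher in kidney at 530.2, 477 and 505 against 201, 196 and 157 (-1.45 ± 0.098), beside the larger mitochondrial share there, and *Pgk1* by a margin within 2-fold (-0.92 to -0.26) that fell under the threshold without IgGL replicate 1 (-0.41).

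In the leptin pathway, 5 of 10 genes were called higher in lung and 3 in kidney (median 0.71). *Lep*, the adipocyte hormone leptin (ENSMUSG00000059201, chromosome 6, 29060219 to 29073876), was low in both organs, with 1.7996, 1.56 and 1.74 normalized CPM in IgGK and 0.25, 0.176 and 0.534 in IgGL. The groups did not overlap (-2.42 ± 0.75, adjusted p = 0.0109), the WTK libraries held 4.57, 3.56 and 9.91, and the adipocyte gene *Adipoq* was higher in the same kidneys. *Lepr*, its receptor (ENSMUSG00000057722, chromosome 4, 101574601 to 101672549), had 10.6, 15.3 and 14.3 normalized CPM in IgGK and 46.9, 37.7 and 29.7 in IgGL (1.51 ± 0.18, adjusted p = 2.76e-06). Downstream of the receptor, *Stat3* had 160.3, 177 and 167 against 311, 378 and 373 (1.07 ± 0.091), and *Socs3*, the feedback inhibitor induced by STAT3, had 31.97, 32.5 and 30.8 against 196, 241 and 235 (2.82 ± 0.15). *Sh2b1* and *Stat5a* were called higher in kidney, with log2 fold changes of -0.61 and -0.58, both within 2-fold, and *Stat5a*, which overlaps *Stat3*, was at -0.48 without IgGL replicate 2.

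The same organs were compared in LepL and LepK, 6 libraries that share none with the above. There 54.2% of genes were called, 5899 higher in lung (27.2%) and 5868 in kidney (27.0%), of which 7.03% and 7.28% of all genes by over 8-fold, and 32.8% were within 2-fold. Of these calls 50.1% were in favour of lung, a share that became 60.5% when counts were scaled by library size alone (7269 and 4752 genes). Of the genes called higher in lung under IgG, 84.2% were called so under LepAb (72.7% of the latter), and of those higher in kidney, 80.6% (79.7%). Of the genes within 2-fold under IgG, 80.8% were so under LepAb (86% of the latter). Calls in opposite directions numbered 8 and 26. Among the genes of the lists, 504 were called under IgG (344 higher in lung and 160 in kidney), and 459 of these were called the same way under LepAb. The list genes with opposite calls were *Cd74* and *H2-Aa*, of which *Cd74* lost its call under IgG with DESeq2 (adjusted p = 0.107) and with each other scaling. *Col1a1* had 102, 201 and 164 normalized CPM in LepK and 1021, 995 and 614 in LepL, each below all libraries of that organ under IgG, with a log2 fold change of 2.49 between the organs. *Eln* had 23.2, 37.3 and 33.5 against 1252, 1398 and 756 (5.18), *Lyz2* 296, 499 and 498 against 6447, 6290.5 and 6699 (3.91), and *Igha* 2321, 2934 and 2392 against 43.4, 25.1 and 44.3 (-6.08). Of the T and NK cell genes, 6 were called higher in lung and none in kidney under LepAb (median 0.47). The difference between the differences was called for 2106 genes (9.71%), and for 109 of the 626 tested genes that were in a list or picked by the naming rules. The 148 genes picked by those rules include 28 reported here that were called.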

How the data were processed

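RNA from kidney and lung was sequenced by the authors as non-directional poly(A) libraries, so reads of overlapping genes cannot be separated by strand. The deposited table holds raw read counts per gene for each library, counted by the authors on GRCm39 (submitters' processing notes); the aligner and counter are not given in the sources used here. Its columns of FPKM and group means and the authors' fold changes and p-values were not used. Columns were matched to samples by the code in the sample description, read with the title, and groups came from the labels. The column of LepL replicate 3 carried an extra suffix after its code. Nothing in the labels ties a library to an animal beyond its group, so p-values measure the spread between these samples.

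Of 56748 genes, 21696 passed edgeR's filterByExpr, set to a minimum count of 10 and a total of 15. Their counts were scaled by TMM over all 15 libraries and fitted with a mean per group (R 4.3.3, edgeR 4.0.16, limma 3.58.1), leaving 10 residual degrees of freedom. The quasi-likelihood test was applied to IgGL against IgGK, LepL against LepK, and the difference of these differences (called at an adjusted p under 0.05, with no fold threshold). Log2 fold changes are given ± SE and means ± SD. In the 6 libraries 1 read was worth 0.0272 to 0.0374 CPM. Replicates of a group differed by more than sampling noise (chi-square per gene 9.39 to 87.4).

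The members and gene lists were chosen with earlier results of these data known. Named were 11 genes of the study's text, the 8 genes with the largest change each way among called genes averaging at least 50 CPM in the higher organ, the 6 most abundant genes within 2-fold, and in each list up to 2 called genes each way and 1 within 2-fold; other genes were named after their values were seen. Alternatives were DESeq2 1.42.0, other scalings, filters, thresholds and sample sets, each library left out, and a replicate block. In simulated counts each gene had the same mean in every group, except for a small set changed in IgGL. Genes of low mean were not changed. There edgeR called 52.5% of the 99 genes changed by 1 and 98.0% of the 101 changed by 3 on the log2 scale. The organs differed in far more genes, so these rates may not hold for them. Some items are not reported here.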

Additional observations from a re-analysis of the deposited data

Results flagged for a closer look

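For 28 of the 148 genes picked by the naming rules the organ difference itself differed between the IgG and the LepAb comparison. This was by the interaction term of the edgeR fit with adjusted p from 0.00121 (*Cdh16*) to 0.0483 (*Lck*). Genes named outside these rules are not listed here, whether or not they passed. Over all genes 9.71% passed this test. Each value below is the log2 difference under IgG minus that under LepAb, so a negative value means a log2 difference shifted toward kidney under IgG.

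In the matrix and growth factor lists the values were 1.24 for *Eln*, 0.874 for *Col27a1*, 1.30 for *Bmp7* and -0.930 for *Mmp11*. For *Eln* both comparisons were in favour of lung (6.42 and 5.18), and for *Bmp7* both were in favour of kidney (-3.08 and -4.38).

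Among macrophage and neutrophil genes, *Lyz2* had -2.45, *Ccl6* -1.20, *Lcn2* -1.38, *Chil3* 3.93 and *Fabp4* -1.41. Among genes of T cells and of antigen presentation, *Gzma* had -3.01, *Lck* -1.29, *Cd74* -1.55 and *H2-Aa* -1.54. *Cd74* and *H2-Aa* went from higher in kidney under IgG (-0.67 and -0.90) to higher in lung under LepAb (0.89 and 0.64), and IgGL replicate 1 stood above the other IgGL libraries in both. The call of *Cd74* under IgG was lost with DESeq2 (adjusted p = 0.107) and in 5 of the 6 fits that left out an IgG library, and both calls were lost with the 6 libraries fitted alone. Among chemokines, cytokines and complement, *Cx3cl1* had -0.810, *Cxcl12* 0.612, *Il34* -0.577, *Clu* -0.566 and *Serpina3n* 1.23.

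In the epithelial, podocyte and factor lists, *Cdh16* had -2.27, *Scnn1a* 1.11, *Aqp1* 0.841, *Podxl* 0.543, *Tcf21* -1.16 and *Tbx2* 0.525. Among genes within 2-fold under IgG, *Eef2* had 0.396, *Fth1* 0.782 and *Pgk1* 0.967. *Fth1* lay within 2-fold under IgG (-0.046) and was lower in lung under LepAb (-0.83).

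The largest value was that of *Star*, at -5.06, with -4.66 under IgG and 0.40 under LepAb. This gene of the adrenal cortex was high in 2 kidney libraries alone (IgGK replicates 1 and 2, 235 and 275 normalized CPM), and the third replicate of that group had 10.3.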

How the results depend on the processing

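Over the alternatives, 147 recomputed counts stayed within 1.5 times the reported value and 13 did not. Among the recomputed log2 fold changes of named genes, 2564 kept direction and side of the thresholds, 54 kept the direction but lost the call, 28 gained a call and 12 reversed. The genes that lost a call under at least 1 alternative were *Cd74*, *Spp1*, *Prf1*, *Lck*, *Trbc2*, *Ifng*, *Ccl2*, *Mmp11*, *Thbs2*, *Star*, *H2-Aa*, *Lep*, *Pgk1* and *Stat5a*. The 12 reversals were of 4 genes without a call. *Cdkn1c* was at 0.10 with IgGK replicate 3 as the only IgGK library and ranged from -0.17 to 0.11 with a library left out. *Fth1* was at 0.012 under DESeq2 and under RLE scaling and ranged from -0.20 to 0.072. *Psap* was at 0.031 under DESeq2 and under RLE scaling and 0.013 under upper-quartile scaling, and ranged from -0.12 to 0.047. *Tpt1* ranged from -0.066 to 0.16.

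The number of genes over 8-fold higher in lung fell from 1138 to 692 at a mean of at least 1 CPM. That of genes over 8-fold higher in kidney fell from 1600 to 1055 with protein-coding genes only. Both settings changed the set of genes tested, and the cause of these falls was not tested. The genes within 2-fold numbered 2957 with bounds of 0.5 in place of 1. The number of genes whose organ difference differed between IgG and LepAb was 3484 with DESeq2, 3170 with no filter on low counts, 152 with glmTreat and 833 at a log2 value over 1, and ranged from 1043 to 4181 with a library left out. It was 4181 without IgGL replicate 1, 1043 without IgGK replicate 2, 1084 without LepK replicate 1, 1105 without LepL replicate 3, 1146 without IgGL replicate 2 and 1296 without IgGK replicate 3; the cause was not tested.

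Several lists had counts that rested on a library. For MHC class II and interferon-stimulated genes, 4 were called higher in kidney, 6 without IgGL replicate 1, 2 without IgGL replicate 2 and 1 with the 6 libraries alone. The median of the chemokine list was 0.85 and became 0.23 without IgGL replicate 3. The median of the T and NK list was -0.83 and became -1.58 without IgGL replicate 1.

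The replicate numbers were shared across groups but do not pair animals, since kidney and lung came from differently treated mice. Same-numbered IgGK and IgGL libraries had correlations of their deviations of -0.025, -0.049 and 0.016. With so few libraries per group these values cannot tell whether same-numbered libraries shared a batch. With the number as a replicate block, 4999 genes were called higher in lung, 5758 in kidney and 1694 in the test of the difference, none a change of over 1.5 times, and the median of the chemokine list was 0.44. Among named genes the call of *Prf1* was lost under the block (adjusted p = 0.0667) and *Abca3* gained a call (-0.50).

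The fit with IgGK replicate 3 as the only IgGK library was chosen after seeing the data, and assumes that this library varies like the other groups. It gave 1103 genes over 8-fold higher in lung, 1560 in kidney and 6251 within 2-fold.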

Other observations

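Genes of the tissue that lines each organ also differed. *Msln*, mesothelin of the pleura and peritoneum, had 7.27, 4.53 and 6.26 normalized CPM in IgGK and 235, 384 and 339 in IgGL (5.73 ± 0.21 on the log2 scale, adjusted p = 1.29e-12, edgeR's quasi-likelihood test), with 1.94 ± 0.419 in WTK. *Upk3b*, a further mesothelial gene, had 13.7, 13.7 and 16.2 against 83.7, 62.7 and 39.5 (2.09 ± 0.23). *Upk1a*, a uroplakin of the urothelium that lines the renal pelvis, went the other way, with 19.2, 16.2 and 22.8 against 1.499, 1.35 and 1.75 (-3.66 ± 0.23, adjusted p = 1.02e-09) and 4.95 ± 1.12 in WTK. *Krt20*, a keratin of superficial urothelium and of injured tubules, had 26.3, 24.6 and 29.3 against 0.15, 0.878 and 0.326 (-5.86 ± 0.37) and was near 0 in vehicle kidney at 0.288 ± 0.0961. *Krt5*, a keratin of basal cells, had 10.1, 11.5 and 10.1 against 15.9, 4.64 and 16.98 and was not called, with 1.81 ± 0.209 in WTK.

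Gene families counted by symbol differed in their share of calls, where 23.5% of all genes were called higher in lung and 26.7% in kidney. Of 15 axonemal dynein heavy chain genes (*Dnah*), which move cilia, 12 were called higher in lung and 1 in kidney. Of 23 keratin genes, 12 were called higher in lung and 4 in kidney. Of 18 claudin genes, which set the leak of tight junctions, 11 were called higher in kidney and 3 in lung, and of 10 aquaporin genes 7 and 1.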
